A study of Mus musculus with 4 samples.

Results

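Interferon-stimulated genes were followed in sorted peritoneal macrophages from mice labelled Mac-Gata6 KO and mice labelled control. Of 32 listed genes of this class, 31 had a probe on the Illumina bead array and 25 had a probe detected on 2 or more arrays, among 11628 genes tested in all, of which 2428 are probes with no gene name. Members were taken by gene symbol from the platform annotation, with each gene represented by its detected probe of highest mean. The list was chosen with earlier results of these data known, and a probe could meet the detection rule through the arrays of either genotype alone. The Mac-Gata6 KO mice carried floxed Gata6 and LysM-cre, a Cre recombinase driven from the lysozyme M locus, which is active in macrophages, neutrophils and other myeloid cells. All mice were C57BL/6, untreated and 8 to 16 weeks old, and each genotype was represented by 2 arrays. Whether the control mice carried Cre is not said in the labels, nor whether the replicates were different mice or pools. The p-values therefore rest on the spread between these arrays alone, part or all of which may be technical.

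Type I interferons bind a receptor made of IFNAR1 and IFNAR2, and the kinases TYK2 and JAK1 then activate STAT2. STAT2 with IRF9 is part of the complex ISGF3, which binds the interferon-stimulated response element (ISRE) in promoters and switches on antiviral genes. Macrophages keep a low level of many of these genes even without infection, and GATA6 is the transcription factor that marks large resident macrophages of the peritoneal cavity.

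Promoters of 4 members are shown to place the ISRE beside the results that follow: Gbp3 was lower and Rsad2 higher in Mac-Gata6 KO, Isg15 did not pass and Ifit1 was not detected. Each run is the 250 bases before a start of the gene in RefSeq (GRCm38.p6), read 5′ to 3′ on the gene's strand. Gbp3 has 2 starts in the table, and the promoter shown is the one with the ISRE, while that of the other start, at chr3:142560106-142560355, holds none. Gbp3 lies at chr3:142559794-142560043 on the plus strand, Rsad2 at chr12:26456453-26456702 on the minus strand, Isg15 at chr4:156200819-156201068 on the minus strand and Ifit1 at chr19:34640639-34640888 on the plus strand. Capitals mark each match to the ISRE core, which is GAAA, any 2 bases and GAAA again, on either strand, with overlapping matches joined.
Gbp3: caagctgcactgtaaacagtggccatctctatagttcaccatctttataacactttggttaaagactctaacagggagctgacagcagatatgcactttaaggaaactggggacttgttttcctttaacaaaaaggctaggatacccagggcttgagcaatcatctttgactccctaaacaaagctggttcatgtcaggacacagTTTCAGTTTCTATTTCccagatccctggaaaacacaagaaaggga
Rsad2: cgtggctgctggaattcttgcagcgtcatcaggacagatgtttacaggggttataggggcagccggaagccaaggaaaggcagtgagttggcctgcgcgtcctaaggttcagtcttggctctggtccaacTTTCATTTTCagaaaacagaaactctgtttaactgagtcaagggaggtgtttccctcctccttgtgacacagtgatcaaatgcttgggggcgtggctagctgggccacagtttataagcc
Isg15: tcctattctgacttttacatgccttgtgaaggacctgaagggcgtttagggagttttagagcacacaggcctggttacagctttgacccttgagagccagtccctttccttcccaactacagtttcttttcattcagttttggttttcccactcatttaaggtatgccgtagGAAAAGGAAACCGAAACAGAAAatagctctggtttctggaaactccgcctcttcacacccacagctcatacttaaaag
Ifit1: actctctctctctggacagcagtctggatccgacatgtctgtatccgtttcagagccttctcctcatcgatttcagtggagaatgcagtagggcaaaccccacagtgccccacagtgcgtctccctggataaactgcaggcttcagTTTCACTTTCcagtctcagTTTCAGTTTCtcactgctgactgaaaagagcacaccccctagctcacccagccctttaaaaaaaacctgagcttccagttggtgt

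The matches began 45 bases before that start in Gbp3, 120 in Rsad2 and 78 in Isg15, and Ifit1 held 2 separate runs, the first beginning 104 bases before the start. Of 24 members with a promoter in the RefSeq table, 12 (50%) held the ISRE core in one of their promoters, against 3.46% of all 27025 genes in the table. The GAS core, TTC, any 3 bases and GAA, an element of interferon-gamma target genes, was found in 3 of the 24 (12.5%, against 8.13% of all genes). The GATA motif AGATAA, searched on both strands, was also found in 3 of the 24 (12.5%, against 11.4%). Of the 10 tested members with the ISRE core, 1 rose and 1 fell, with log2 changes from -1.10 to 1.05 and a median of 0.14. The 8 tested members without it in this window had log2 changes from -0.34 to 0.19, with a median of 0.088, and none passed. Over all genes tested, 12.3% were called. Zbp1, another member called higher, had no promoter in the table and is in neither group. The difference between these groups was not tested. A match describes these letters only and does not show that a factor binds there.

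Most interferon-stimulated genes had similar signal in Mac-Gata6 KO and control macrophages. By limma's moderated test with Benjamini-Hochberg adjustment over all 11628 genes, 2 of the 25 tested members rose (Rsad2 and Zbp1), 1 fell (Gbp3) and 22 did not pass. That is 12.0% of the members, beside 12.3% of all genes tested, of which 6.11% rose and 6.14% fell, so the share of members called was near the background. At an unadjusted p under 0.05 the count was 5 of 25 (20.0%), against 27.9% of all genes. The arrays of the genotypes did not overlap for 12 members, 7 higher and 5 lower in Mac-Gata6 KO, which is 48.0% beside 56.8% of all genes.

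The sizes of the changes were also close to those of the array as a whole. The median log2 change was 0.14 over the members and -0.0087 over all genes, and the median absolute log2 change was 0.18 over the members and 0.23 over all genes. The members' log2 changes ran from -1.10 to 1.05, and 20 of 25 (80.0%) were smaller than 0.5 in either direction, against 79.2% of all genes. For 20 of the 25 members (80.0%, against 81.6% of all genes) the 95% interval of the change, not adjusted for the number of genes, lay inside a 2-fold change in both directions. The exceptions were Gbp3, Rsad2, Zbp1, Trim30a and Oasl1.

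**Figure D1:**
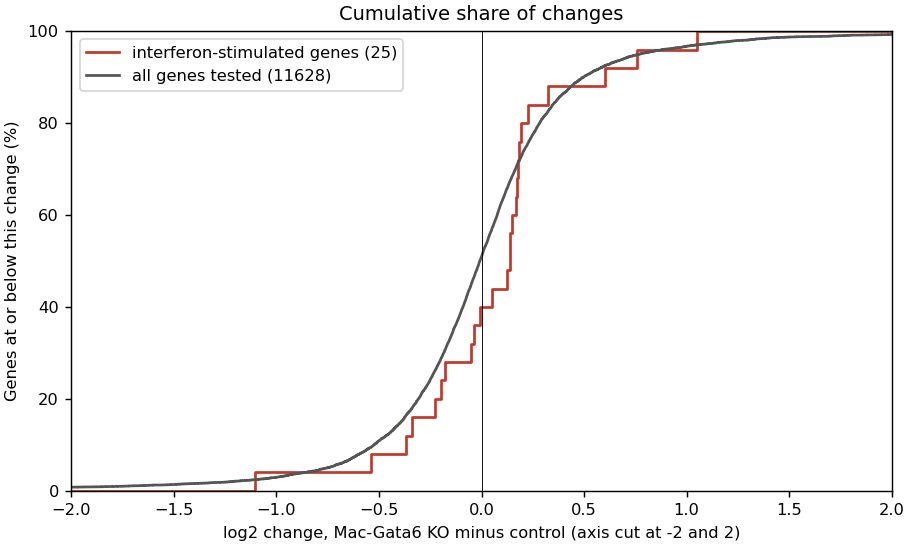
Cumulative share of genes (vertical axis, %) at or below each log2 change of Mac-Gata6 KO minus control (horizontal axis), for the 25 tested interferon-stimulated genes and for all 11628 genes tested. The red steps stay near the grey curve, with a median of 0.14 against -0.0087.

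The arrays gave similar overall signal. Between 35.5% and 36.4% of 45281 probes were detected on each, and the median absolute log2 difference between arrays was 0.18 within Mac-Gata6 KO and 0.16 within control, against 0.26 to 0.30 between them. Over the interferon-stimulated members it was 0.22 within Mac-Gata6 KO and 0.22 within control. One Gata6 probe gave log2 signals of 13.07 and 12.82 on the Mac-Gata6 KO arrays, against 13.77 and 13.66 on the control arrays. Its log2 change was -0.76 (adjusted p = 0.0270), a call lost whichever array was left out. A second Gata6 probe had 5.31 and 5.65 on the Mac-Gata6 KO arrays, neither detected, against 6.60 and 6.44 on the control arrays, both detected. The sources used here place neither probe relative to the deleted part of Gata6, so they do not by themselves check the labels. Levels below are log2 normalized intensities, which cannot be compared between probes of different genes.

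Rsad2 encodes viperin, an antiviral enzyme that makes a chain-ending nucleotide and blocks replication of many viruses. Its signal was 7.27 and 7.05 on the Mac-Gata6 KO arrays, against 6.06 and 6.16 on the control arrays. Both Mac-Gata6 KO arrays lay above both control arrays, a log2 change of 1.05 ± 0.15 (SE, 2.07-fold, adjusted p = 0.0080). The gene had 1 probe, which was dim on the control arrays, where the lowest detected values of any probe were 5.71 and 5.76. Raw intensities were 261 and 256 on the Mac-Gata6 KO arrays, against 187 and 184 on the control arrays. The change was 0.49 without background correction, and the call was lost without Mac-Gata6 KO replicate 1 (adjusted p = 0.0504) and without control replicate 1 (0.0518).

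Cmpk2, the mitochondrial nucleotide kinase whose gene is the direct neighbour of Rsad2 and is often induced with it, showed no such difference. It had 8.63 and 8.97 on the Mac-Gata6 KO arrays, against 8.85 and 8.64 on the control arrays. The groups overlapped, and the log2 change was 0.050 with a 95% interval from -0.38 to 0.48 (adjusted p = 0.889). The difference between the changes of these neighbours was not tested.

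Zbp1, a sensor of Z-form nucleic acid that can trigger cell death, had 6.85 and 7.15 on the Mac-Gata6 KO arrays, against 6.35 and 6.13 on the control arrays. Here too the groups did not overlap, with a log2 change of 0.76 ± 0.17 (SE, adjusted p = 0.0388). A second Zbp1 probe was detected on both Mac-Gata6 KO arrays and on neither control array, at least 1.49-fold higher by the background-corrected values. That probe was kept only through the Mac-Gata6 KO arrays, and its control detection p of 0.0545 and 0.0524 lay just over the cutoff of 0.05. The brighter probe was also dim on the control arrays, where the lowest detected values of any probe were 5.71 and 5.76. Its log2 change was 0.35 without background correction. Its call was lost with any 1 array left out (adjusted p from 0.0698 to 0.169) and with no detection filter (0.0745).

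Gbp3, an interferon-induced guanylate-binding protein that gathers on vacuoles holding pathogens, was the member that fell. It had 11.03 and 10.99 on the Mac-Gata6 KO arrays, against 12.26 and 11.97 on the control arrays. The groups were well apart, with a log2 change of -1.10 ± 0.16 (SE, adjusted p = 0.0079), so that control signal was 2.15-fold that of Mac-Gata6 KO. A second Gbp3 probe had 11.41 and 10.93 on the Mac-Gata6 KO arrays, against 12.10 and 11.73 on the control arrays. This probe's log2 change was -0.75 ± 0.22 (adjusted p = 0.0896 over all detected probes). The Gbp3 call was lost without Mac-Gata6 KO replicate 1 (adjusted p = 0.0521), without control replicate 2 (0.111) and without control replicate 1 (0.295). Without either control array the second probe became the brighter one and stood for the gene, with log2 changes of -0.92 without control replicate 2 and -0.56 without control replicate 1. Gbp6, another guanylate-binding protein, was not detected on any array.

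**Figure D2:**
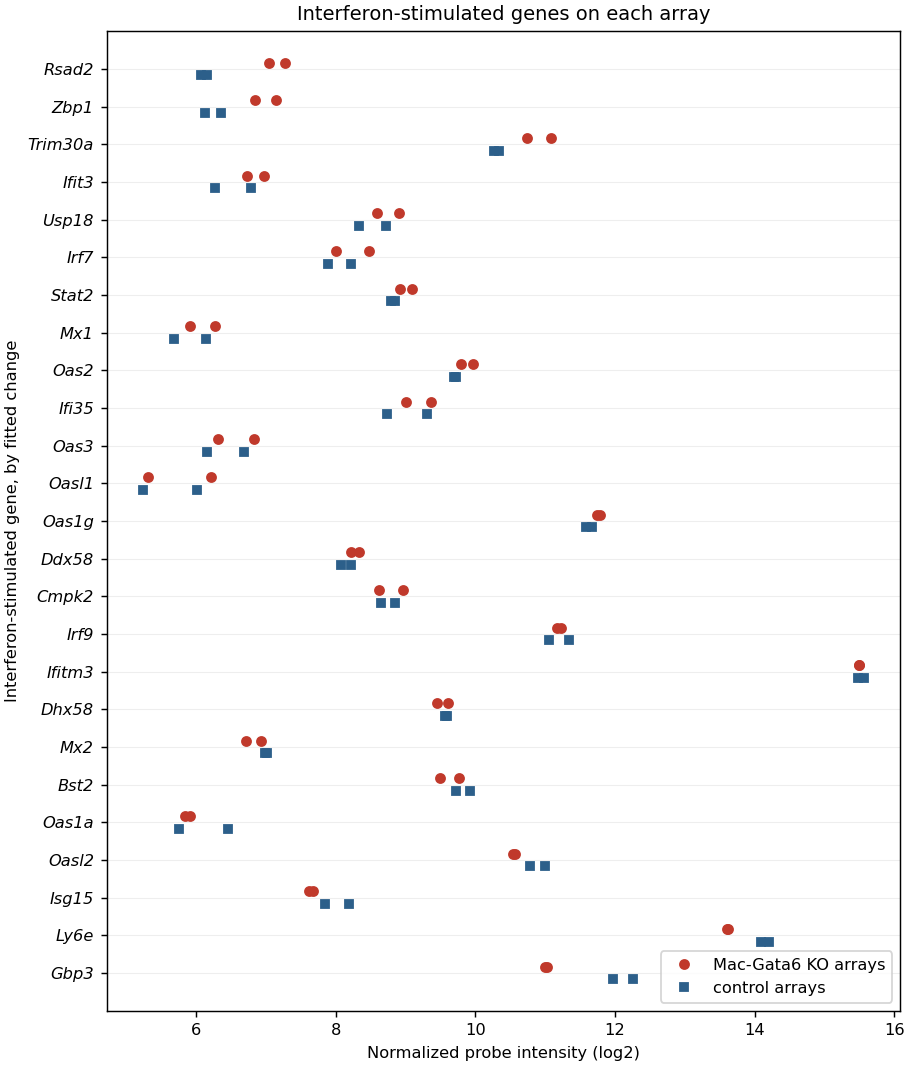
Log2 normalized probe intensity (horizontal axis) of the 25 tested interferon-stimulated genes (rows), with Mac-Gata6 KO arrays as red circles above control arrays as blue squares. Rsad2, Zbp1 and Gbp3 show the genotypes apart, while for 13 of the 25 genes the arrays overlap.

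Among proteins of the cell surface and membranes, Ly6e came closest to passing. Ly6e, a lipid-anchored surface protein that restricts entry of some coronaviruses and is a textbook interferon target, had 13.62 and 13.60 on the Mac-Gata6 KO arrays, against 14.10 and 14.20 on the control arrays. The groups did not overlap and the log2 change was -0.54 ± 0.13 (SE, adjusted p = 0.0540). Its second probe had a log2 change of -0.65 ± 0.14 and passed over all detected probes (adjusted p = 0.0389). Averaged over both probes the gene passed (adjusted p = 0.0352), as it did in 5 other settings that kept all arrays.

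Ifitm3, which blocks fusion of enveloped viruses in endosomes, had similar values in both genotypes, at 15.49 and 15.49 on the Mac-Gata6 KO arrays, against 15.49 and 15.57 on the control arrays. Its log2 change was -0.035, with a 95% interval from -0.36 to 0.29. Raw intensities on the Mac-Gata6 KO arrays were 42327 and 45538, and quantile normalization gave both the same value. With median scaling instead, the Ifitm3 log2 change was -0.15. Bst2, or tetherin, which holds budding virus on the cell surface, had 9.77 and 9.49 on the Mac-Gata6 KO arrays, against 9.92 and 9.73 on the control arrays. Those values overlapped, and the log2 change was -0.20 ± 0.16 (adjusted p = 0.501).

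Trim30a, a TRIM protein that restrains signalling from Toll-like receptors, had 10.73 and 11.08 on the Mac-Gata6 KO arrays, against 10.34 and 10.27 on the control arrays. The Mac-Gata6 KO arrays were both higher, yet the log2 change of 0.60 ± 0.17 did not pass (adjusted p = 0.0705). It passed in 6 of 10 other settings that kept all arrays and in 0 of the 4 that left one out. Trim30d, a near relative and neighbour of Trim30a, had a log2 change of 0.039 ± 0.13. Ifi35, an interferon-induced leucine zipper protein, had 9.36 and 9.01 on the Mac-Gata6 KO arrays, against 8.73 and 9.30 on the control arrays, which overlap.

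Isg15, the ubiquitin-like modifier that is among the most strongly induced genes in an interferon response, did not pass. It had 7.62 and 7.67 on the Mac-Gata6 KO arrays, against 8.18 and 7.85 on the control arrays. Both Mac-Gata6 KO values were lower, by a log2 change of -0.37 ± 0.16 that did not pass (adjusted p = 0.209, 95% interval from -0.77 to 0.031). Usp18, the protease that removes ISG15 and dampens the receptor, had 8.59 and 8.90 on the Mac-Gata6 KO arrays, against 8.33 and 8.72 on the control arrays. Its values overlapped, with a log2 change of 0.23 ± 0.19.

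Of the IFIT proteins, which bind viral RNA, Ifit3 alone was detected. It had 6.73 and 6.97 on the Mac-Gata6 KO arrays, against 6.78 and 6.27 on the control arrays, a log2 change of 0.32 ± 0.21 that did not pass (adjusted p = 0.382). Mx1, an antiviral GTPase whose gene is defective in most C57BL/6 stocks, was dim, at 5.91 and 6.27 on the Mac-Gata6 KO arrays, against 6.14 and 5.69 on the control arrays. It was detected on both Mac-Gata6 KO arrays and on 1 of the 2 control arrays. Mx2, its relative, had 6.71 and 6.93 on the Mac-Gata6 KO arrays, against 6.98 and 7.01 on the control arrays. The Mx2 values did not overlap, but the log2 change of -0.18 ± 0.15 did not pass (adjusted p = 0.501).

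The oligoadenylate synthetases make the second messenger that activates RNase L, and their relative Oasl1 lacks that activity. By the probe used for each gene, none of the 6 passed (0 of 6 also at an unadjusted p under 0.05 in limma), with 4 log2 changes above 0 and 2 below. Oas1g had 11.75 and 11.79 on the Mac-Gata6 KO arrays, against 11.68 and 11.59 on the control arrays, and Oas2 had 9.80 and 9.96, against 9.70 and 9.72. Both were slightly higher on each Mac-Gata6 KO array, with log2 changes of 0.14 ± 0.13 and 0.17 ± 0.14. Oasl2 went the other way, at 10.56 and 10.54 on the Mac-Gata6 KO arrays, against 11.00 and 10.78 on the control arrays (log2 change -0.34 ± 0.15, adjusted p = 0.195).

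Oas1a, Oas3 and Oasl1 were dim and their values overlapped between the genotypes. Their log2 changes were -0.23 ± 0.24 for Oas1a, 0.15 ± 0.25 for Oas3 and 0.14 ± 0.37 for Oasl1. The Oasl1 probe just met the rule for detection, with 1 array of each genotype detected, and its 95% interval from -0.75 to 1.03 was the widest among the members. A second Oasl1 probe was detected on both Mac-Gata6 KO arrays and on neither control array, at least 1.22-fold higher by the background-corrected values. That probe passed over all detected probes (adjusted p = 0.043). It was likewise kept only through the Mac-Gata6 KO arrays, so the pass is not support. Oas1a and Oas1g, like the GBP, IFITM, Mx and Trim30 genes, belong to families of similar sequence, so their values are uncertain as to the member.

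**Figure D3:**
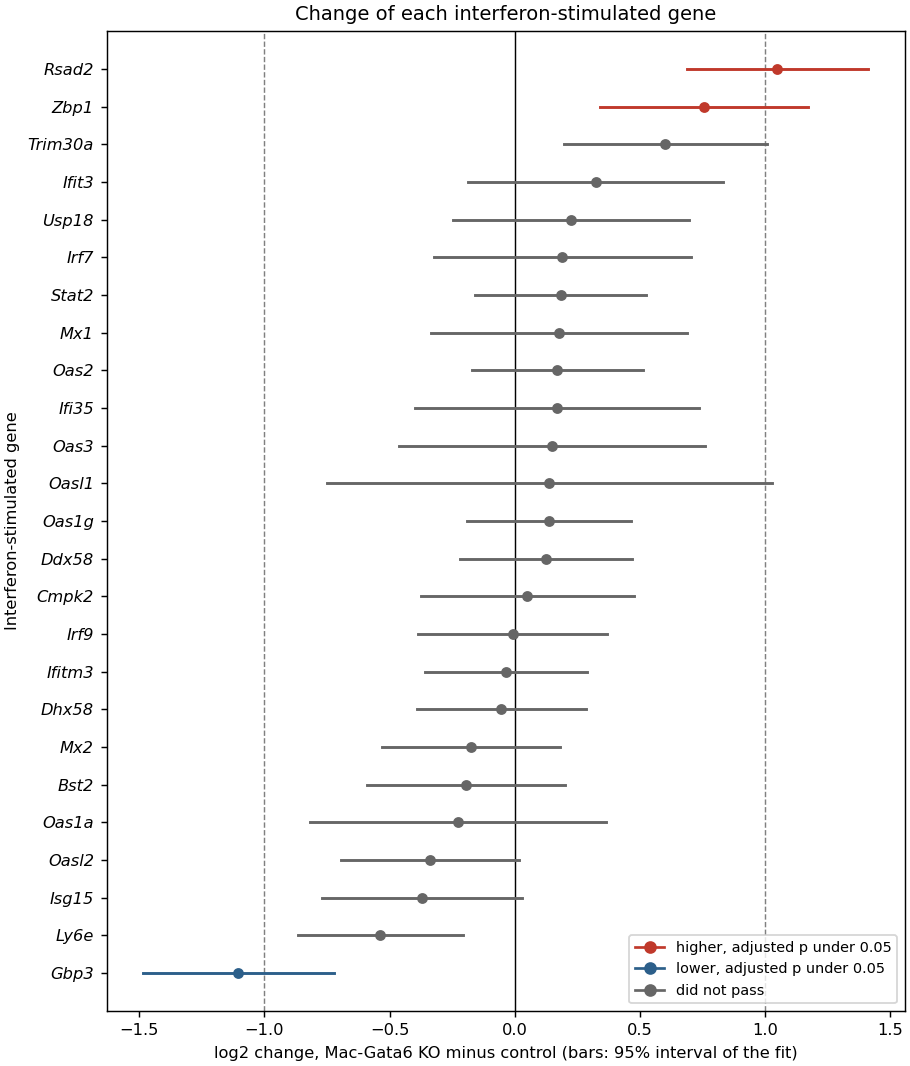
Log2 change of Mac-Gata6 KO minus control (horizontal axis, points) with its 95% interval from the fit (bars) for each of the 25 tested interferon-stimulated genes, coloured by the adjusted test. Dashed lines mark a 2-fold change, and 20 of the 25 intervals lie between them.

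The factors that carry the interferon signal were detected on all arrays and did not pass. Stat2 had 8.92 and 9.09 on the Mac-Gata6 KO arrays, against 8.85 and 8.80 on the control arrays, a small rise in both that gave a log2 change of 0.18 ± 0.14 (adjusted p = 0.463). Irf9 had 11.16 and 11.22 on the Mac-Gata6 KO arrays, against 11.34 and 11.06 on the control arrays, with a log2 change of -0.0081 ± 0.16. A second Irf9 probe had a log2 change of 0.38 ± 0.18 that did not pass. Irf7, the factor that amplifies interferon production, had 8.01 and 8.47 on the Mac-Gata6 KO arrays, against 7.88 and 8.22 on the control arrays. The Irf7 arrays differed more within each genotype than the genotypes did from each other (log2 change 0.19 ± 0.21).

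Among the cytosolic sensors of viral RNA, Ddx58 (RIG-I) had 8.33 and 8.22 on the Mac-Gata6 KO arrays, against 8.22 and 8.08 on the control arrays. Dhx58 (LGP2), which tunes the other sensors, had 9.45 and 9.60 on the Mac-Gata6 KO arrays, against 9.59 and 9.57 on the control arrays. Neither passed, and the log2 changes were 0.13 ± 0.14 and -0.053 ± 0.14. The 2 other detected Dhx58 probes had log2 changes of 0.048 and 0.15. Over all members, 10 further detected probes of 9 genes were available, of which 7 pointed the same way as the probe used and 3 the opposite way, those of Irf9 and Dhx58.

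The 6 members with probes that were not tested, Ifit1, Ifit2, Ifih1, Xaf1, Cxcl10 and Gbp6, were not well above background on any array. Their 9 probes gave 36 readings, 0 of them with a detection p under 0.05, and raw intensities from 103 to 154. The readings nearest to detection were on Mac-Gata6 KO replicate 1, for Ifih1 (MDA5, another RNA sensor), with a detection p of 0.0780, and for Xaf1, a pro-apoptotic factor, with 0.0791. Cxcl10, the chemokine that draws T cells through CXCR3, had raw intensities of 127 and 142 on the Mac-Gata6 KO arrays, against 144 and 136 on the control arrays, by the first of its probes. Ifit1 had 107 and 124 on the Mac-Gata6 KO arrays, against 138 and 113 on the control arrays. No difference is read from these values, and Ifi44 was not analysed here.

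Single arrays weighed on the members' small median change. The second Mac-Gata6 KO array exceeded the first for 15 of 25 members (60.0%, against 50.9% of all genes), with a median log2 difference of 0.060. The first control array exceeded the second for 16 of 25 (64.0%, against 53.0% of all genes), with a median log2 difference of 0.088. Leaving out Mac-Gata6 KO replicate 2 brought the median change of the members to -0.017, and leaving out control replicate 2 to 0.0044.

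Upstream of these genes, interferon transcripts were mostly at background. Of 11 ligands with a probe, 2 were tested and 0 passed (0 of 2 at an unadjusted p under 0.05 in limma), while Ifnb1, Ifng and the other ligands with a probe were not detected on 2 arrays. The tested ones, Ifnab and Ifne, had log2 changes of -0.065 ± 0.14 and 0.55 ± 0.27. Of receptors, JAKs and STATs, 1 of 8 tested rose and none fell (12.5%, beside 12.3% of all genes). The riser was Ifngr1, the ligand-binding chain of the interferon-gamma receptor, at 11.98 and 12.02 on the Mac-Gata6 KO arrays, against 11.23 and 11.37 on the control arrays (log2 change 0.70 ± 0.14, adjusted p = 0.0248).

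The other chains and kinases did not pass. Log2 changes were -0.37 ± 0.18 for Ifngr2, -0.30 ± 0.20 for Ifnar2, 0.39 ± 0.22 for Jak1, -0.20 ± 0.16 for Jak2, 0.013 ± 0.14 for Tyk2 and 0.20 ± 0.21 for Stat3. The single Ifnar1 probe was not well above background on any array, with detection p from 0.684 to 0.986.

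Among interferon regulatory factors and their cofactors, 1 of 8 tested rose and 1 fell (25.0%, beside 12.3% of all genes). Irf2, which occupies the same promoter elements as IRF1 and often represses them, fell. It had 13.28 and 13.41 on the Mac-Gata6 KO arrays, against 14.36 and 14.42 on the control arrays. The genotypes were far apart relative to their spread, with a log2 change of -1.04 ± 0.14 (adjusted p = 0.0063) that passed in every setting run, those with an array left out included. Irf1, an activator of many interferon-gamma targets, rose, at 13.15 and 13.07 on the Mac-Gata6 KO arrays, against 12.55 and 12.49 on the control arrays (log2 change 0.60 ± 0.13, adjusted p = 0.0392). Irf4 and Irf2bp2 had log2 changes of 0.47 ± 0.16 and 0.45 ± 0.14 and did not pass.

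Of negative regulators, 1 of 11 tested was higher and 1 lower (18.2%, beside 12.3% of all genes). Ptpn1, a phosphatase that acts on JAK2 and TYK2, rose by 0.78 ± 0.13 (adjusted p = 0.0154). Socs3, a feedback inhibitor of STAT3 signalling, fell by 0.72 ± 0.14 (adjusted p = 0.0269). Pias3 and Nr1d1, a circadian repressor, had log2 changes of -0.43 ± 0.15 and -0.51 ± 0.14 and did not pass. Of sensors, adaptors and kinases that induce interferon, 1 of 14 rose and none fell (7.14%, beside 12.3% of all genes). Tlr7, the endosomal receptor for single-stranded RNA, had 12.86 and 12.99 on the Mac-Gata6 KO arrays, against 12.38 and 12.32 on the control arrays (log2 change 0.58 ± 0.14, adjusted p = 0.0472). Its chaperone Unc93b1 (0.38 ± 0.14), Irak1 (-0.42 ± 0.14) and Ikbke (0.40 ± 0.16) had log2 changes that did not pass. The calls of Ifngr1, Irf1, Ptpn1, Socs3 and Tlr7 were lost whichever array was left out.

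A longer list of further genes that type I interferon can induce had 6 of 38 tested members higher, 2 lower and 30 not passed, which is 21.1% called beside 12.3% of all genes. The genotypes' arrays did not overlap for 81.6% of them, beside 56.8% of all genes, and the median log2 change was 0.26 beside -0.0087 over all genes. Of the 6 higher genes, Ccl12 and Ifi204 were detected on no control array and entered the test only through the Mac-Gata6 KO arrays. The shares above count both, and the list was chosen with earlier results of these data known. These shares are therefore a description and not support. Ifi47, a GTPase of the IRG family, had 9.87 and 10.00 on the Mac-Gata6 KO arrays, against 8.92 and 8.66 on the control arrays (log2 change 1.14 ± 0.15, adjusted p = 0.0067). Ifi205, a DNA-binding protein of the PYHIN family, had 7.48 and 7.93 on the Mac-Gata6 KO arrays, against 6.54 and 6.28 on the control arrays (log2 change 1.30 ± 0.20, adjusted p = 0.0105). The Ifi205 log2 change was 0.70 without background correction, and the call was lost without control replicate 2 (adjusted p = 0.0551). Ifi47 and Ifi205 had higher values on each Mac-Gata6 KO array than on either control array. Ccl12, a chemokine that attracts monocytes, was detected on both Mac-Gata6 KO arrays, at least 4.80-fold higher, while its control signal was not well above background. That bound holds for the background-corrected values, and without the correction the Ccl12 log2 change was 1.48.

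Isg20, an exonuclease of the same list, fell, at 6.33 and 5.94 on the Mac-Gata6 KO arrays, against 7.10 and 7.19 on the control arrays (log2 change -1.01 ± 0.17, adjusted p = 0.0161). Isg20 passed with 1 of the 4 arrays left out and not with the 3 others, and its log2 change was -0.46 without background correction.

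Targets of interferon-gamma had 3 of 9 tested members higher, 1 lower and 5 not passed, which is 44.4% called beside 12.3% of all genes. Ciita, 1 of the 3, was detected on no control array and entered the test only through the Mac-Gata6 KO arrays. That share counts Ciita, and this list too was chosen with earlier results of these data known, so the share is not support. Ciita, the switch for class II genes, was detected on both Mac-Gata6 KO arrays, at least 2.81-fold higher by the background-corrected values, and without the correction its log2 change was 0.95. Irgm2, a GTPase that guards vacuoles, had 11.20 and 11.25 on the Mac-Gata6 KO arrays, against 10.38 and 10.43 on the control arrays (log2 change 0.82 ± 0.13, adjusted p = 0.0132). Gbp2 fell like Gbp3, at 10.91 and 10.72 on the Mac-Gata6 KO arrays, against 11.51 and 11.70 on the control arrays (log2 change -0.79 ± 0.15, adjusted p = 0.0238). The other guanylate-binding proteins tested, Gbp5 and Gbp7, had log2 changes of 0.27 ± 0.13 and 0.12 ± 0.13 and did not pass, and Gbp7 is the direct neighbour of Gbp3. The calls of Irgm2 and Gbp2 were lost whichever array was left out.

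**Figure D4:**
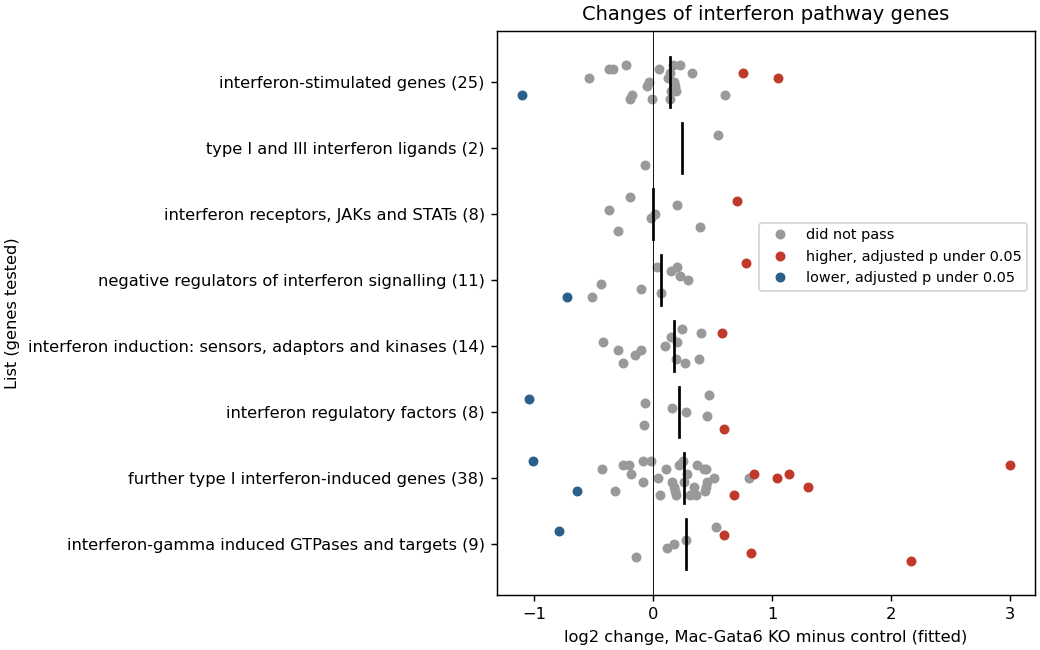
Fitted log2 change of Mac-Gata6 KO minus control (horizontal axis) for each tested gene (points) of the interferon-stimulated genes and 7 related lists (rows, with the number tested), with black bars at the medians. The medians lie between -0.0044 and 0.27, and the called genes in red and blue fall on both sides of 0 in 5 of the 8 lists. For Ccl12, Ifi204 and Ciita, not above background in control, the point is a fitted value, not a bound.

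Several interferon-stimulated genes are also expressed by other cells that a macrophage sort can hold, and markers of some of these moved with the genotype. In bulk samples, fewer cells of a type and less RNA per cell cannot be told apart. Of 7 inflammatory monocyte markers with a probe, 5 were tested, 3 rose (Ccr2, Plac8 and F13a1) and 1 fell (Cd177). That is 80.0% called, beside 12.3% of all genes, while Chil3 did not pass (adjusted p = 0.0822). Ms4a4c and Vcan were not detected on 2 arrays. Ccr2 was detected on no control array and entered the test only through the Mac-Gata6 KO arrays. The summed intensity of the 5 was 41060 to 46989 in Mac-Gata6 KO, against 20377 to 21872 in control, of which F13a1 alone made up 82.4% to 89.3%. Without F13a1 the sum was 4381 to 5373 in Mac-Gata6 KO, against 3304 to 3842 in control. F13a1 was already bright on the control arrays, at 14.14 and 14.06, where Ccr2 was not detected. Which cells gave the F13a1 signal was not tested, so the larger sum cannot be read as monocytes alone. Of 6 B cell markers with a probe, 4 were tested, 3 rose (Blk, Fcmr and Cd79b) and none fell, with summed intensity of 1401 to 1620 in Mac-Gata6 KO, against 742 to 790 in control. The B cell calls were 75.0% of the 4 tested, beside 12.3% of all genes, and Ms4a1 and Pax5 were not detected on 2 arrays. Of 9 markers of plasmacytoid dendritic cells, the main makers of type I interferon, 4 were tested and 1 rose (25.0%, beside 12.3% of all genes). The riser, Cox6a2, was at least 2.43-fold higher by the background-corrected values. It was detected on no control array, and so was tested only through the Mac-Gata6 KO arrays. The summed intensity of the 4 was 6243 to 7641 in Mac-Gata6 KO, against 5356 to 5917 in control. Tcf4, which did not pass (adjusted p = 0.298), made up 80.7% to 86.4% of that sum. Without Tcf4 the sum was 1041 to 1205 in Mac-Gata6 KO, against 1012 to 1067 in control. The defining markers Siglech and Ccr9 were not detected, and Bst2 is on both lists.

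Of 7 T and NK cell markers with a probe, 2 were tested, of which Cd2 rose and Klrb1c had a log2 change of -0.12 (adjusted p = 0.857), while Cd3e, Cd3d, Cd3g, Nkg7 and Ncr1 were not detected on 2 arrays. Of 8 eosinophil and mast cell markers, 4 were tested and 1 rose (Cpa3). Of 5 neutrophil markers, 1 was tested and it fell (S100a8), and 0 of 5 mesothelial markers with a probe were detected on 2 arrays. Of the 5 erythroid markers with a probe, 4 were tested, 3 rose and none fell (75%, beside 12.3% of all genes). Of the risers, 2 (Hbb-bs and Hba-a1) were detected on no control array and were tested only through the Mac-Gata6 KO arrays. By the background-corrected values Hbb-bs was at least 5.72-fold higher and Hba-a1 at least 5.11-fold. The other riser, Hbb-bt, had a log2 change of 1.74 ± 0.18, and Klf1 did not pass. The T and NK, eosinophil and mast cell and neutrophil counts also stand beside 12.3% of all genes. Macrophage markers were detected in both genotypes, with 9 of 9 measured, 0 higher and 3 lower in Mac-Gata6 KO (33.3% called, beside 12.3% of all genes). Log2 changes of the 3 were -2.94 ± 0.13 for Fcgr1, -1.56 ± 0.17 for Adgre1 and -0.56 ± 0.14 for Icam2. Fcgr1 was dim on the Mac-Gata6 KO arrays, at 6.15 and 6.07, where the lowest detected values of any probe were 5.69 and 5.75. The part of these markers in the changes of Rsad2, Zbp1, Gbp3 and the other named genes was not tested.

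**Figure D5:**
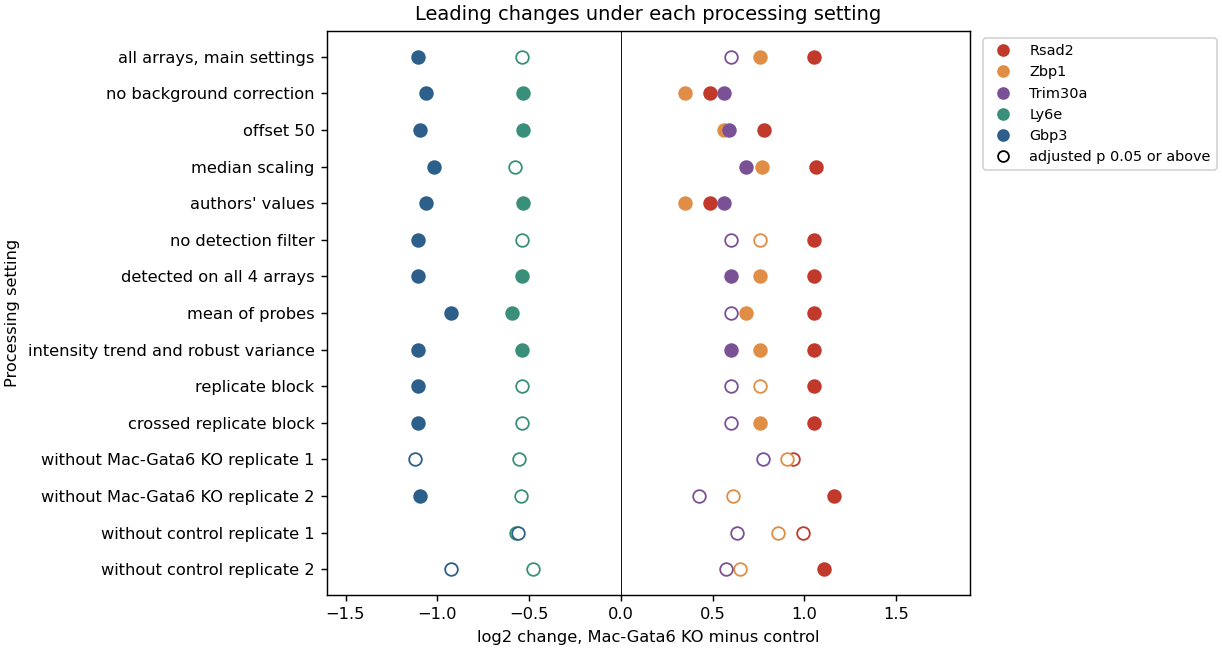
Log2 change of Mac-Gata6 KO minus control (horizontal axis) of the 5 interferon-stimulated genes with an unadjusted p under 0.05, under each processing setting (rows), with filled points where the adjusted p was under 0.05. Each gene kept its direction in every setting shown, and with an array left out only Rsad2 (2 of 4 settings) and Gbp3 (1 of 4) passed.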

How the data were processed

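The authors deposited raw probe intensity with a detection p-value for every probe and array, per the file headers, and a table of processed intensity values on a linear scale whose columns share 1 distribution. The labels name Illumina arrays and biotin-labelled cRNA, and sources used here do not name the software.

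Intensities of 45281 probes were background-corrected and quantile-normalized with neqc of limma 3.58.1 (R 4.3.3, offset 16, log2). Probes with a detection p under 0.05 on at least 2 arrays were kept (16713), named through the platform annotation and RefSeq, and each gene was represented by its brightest probe. The genotypes were compared by limma's lmFit and eBayes over 11628 genes and unnamed probes, two-sided, with no block, and a gene was called at a Benjamini-Hochberg adjusted p below 0.05. The fit was tested on simulated data. Where a group had no array above background, the dimmer side was set to at least the lowest detected value and the fold given as a bound. ± gives the standard error of the fit. The number of arrays limits the precision.

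Members and lists were chosen with earlier results of these data known. All members were accounted for, with up to 4 genes of smallest p from each other list, and the receptor chains, JAKs, STATs and Gata6. Other names were picked with values in view. Alternatives covered background, offset, scaling, the authors' values, detection filter, probe choice, variance model, blocks and each array left out.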

Additional observations from a re-analysis of the deposited data

How the results depend on the processing

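Rsad2 and Gbp3 passed in every setting that kept all arrays. Counts of members higher in Mac-Gata6 KO were 1 with no detection filter, 1 with the replicate block and 1 at 2-fold or more, against 2 as reported. They were 3, with Trim30a joining, when background was not corrected, with offset 50, with median scaling, with the authors' values, with detection on all 4 arrays and with a robust variance trend. Counts of members lower were 2, with Ly6e joining Gbp3, without background correction, with offset 50, with the authors' values, with detection on all 4 arrays, with the mean of probes and with a robust variance trend, against 1 as reported. Leaving out 1 array gave 0 to 1 higher and 0 to 1 lower, where the remaining array is taken to vary as the other genotype does. Over all genes 1101 were higher and 1142 lower when background was not corrected, 1100 and 1142 with the authors' values, 1089 and 1134 with the robust variance trend, and 249 to 390 and 238 to 416 with 1 array left out. The members' median log2 change was 0.065 without background correction, 0.065 with the values the authors processed, and -0.017 to 0.13 with 1 array left out. The cause of these differences was not tested, beyond the fewer arrays and, for Gbp3 without either control array, the change of probe.

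Changes that passed in no setting turned sign in some. Irf9 took log2 changes of 0.066 with median scaling and 0.19 with the mean of probes, and Dhx58 0.014 and 0.049. With the mean of probes Ifnar2 took 0.031 and Tyk2 -0.13. With 1 array left out the log2 ranges crossed 0 for Mx1 (-0.048 to 0.40), Oas1a (-0.59 to 0.13), Oas3 (-0.11 to 0.42), Oasl1 (-0.25 to 0.92), Irf7 (-0.044 to 0.42), Irf9 (-0.15 to 0.13), Dhx58 (-0.13 to 0.021), Ifitm3 (-0.077 to 0.0044), Cmpk2 (-0.12 to 0.22), Ifi35 (-0.12 to 0.46), Tyk2 (-0.084 to 0.11), Stat3 (-0.0089 to 0.40) and Ifnab (-0.14 to 0.013).

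The labels do not say whether the replicate numbers pair the samples. Arrays with the same number deviated from their group means with a correlation of -0.13 (across genes, not independent replicates). With 2 arrays per genotype the crossed numbers must give the mirror value, 0.13, so the correlation cannot show whether the samples are paired. With the replicate block Zbp1 (adjusted p = 0.0627), Irf1 (0.0794), Tlr7 (0.0917) and Socs3 (0.0527) did not pass, and Rsad2 and Gbp3 did. Pairing the numbers crosswise, an alternative added once the data had been seen, called 2 members higher and 1 lower, and ended the calls of Irf1 (0.0511) and Tlr7 (0.0523). No slide is named, so none could serve as a block. Signal over background limits dim members, 6 of which could not be tested.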
